A study of Mus musculus with 2 samples.

Results

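The heat shock proteins and their J-domain partners of the mouse heart are described here as a set of 76 genes. A gene belonged to the set when it had at least 1 transcript annotated as protein-coding and a symbol of the Hspa, Hspb, Hspd, Hspe, Hsph, Hsp90, Dnaja, Dnajb or Dnajc series, and Cryab and Bag3 were added by name. These are 76 of the 21901 mouse genes with such a transcript, and the rule itself uses no measured value, though the set was proposed with earlier results of these data known. The tissue was whole heart from adult males of the B6CASTF1/J strain, 2 animals aged 8 to 10 months, from which total RNA was sequenced. B6CASTF1/J mice are the first-generation offspring of C57BL/6J and CAST parents. No treatment is named in the labels, which give 300 ng of RNA per library, reduced ribosomal RNA, a strand-keeping kit and added ERCC spike-in RNA. The labels call the animals 2 (replicate 1 here) and 4 (replicate 2) but list both under 1 donor entry, and they form the only group, so nothing was compared between conditions and no p-value is given. Levels are in TPM, which counts a gene's reads per unit of transcript length and gives every library the same total, and ± is the SD over both libraries (n = 2). All 8 heart muscle markers examined were above 1 TPM in both libraries. Summed over these markers, the level was 29592 TPM in replicate 1 and 32036 TPM in replicate 2.

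Molecular chaperones hold unfolded proteins, help them fold or pass them on for degradation. HSP70 proteins bind and release short exposed stretches of a client as they use ATP, J-domain proteins bring clients to HSP70 and start its ATPase, HSP110 proteins exchange the nucleotide, and HSP90 finishes the folding of kinases, receptors and other clients. Small heat shock proteins hold clients without ATP, and in heart muscle they associate with the contractile filaments, desmin and titin. Each cell compartment has its own chaperones: many cytosolic genes can be induced by heat shock factor 1, while those of the endoplasmic reticulum (ER) are induced by the unfolded protein response.

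Promoter windows were read for the elements of both responses. RefSeq promoter windows, from 250 bases before to 50 after a gene's start (GRCm38.p6, the mm10 assembly), were found for 61 of the 76 genes and for 27025 genes in all. A heat shock element was searched on both strands as alternating inverted GAA units with 2 bases between units: 2 units read GAANNTTC or TTCNNGAA, and a longer form has 3 units and contains the shorter one. The ER stress element was CCAAT, then 9 bases, then CCACG. The windows below are 30 bases long, 5′ to 3′ on the strand of the gene, with the matched element in capitals, and are shown because these genes hold the 3-unit form, differ between the animals as described further on, or carry the ER element.
Hspe1, chr1:55088053-55088082, plus strand: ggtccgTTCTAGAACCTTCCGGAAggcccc
Dnajb6, chr5:29735843-29735872, plus strand: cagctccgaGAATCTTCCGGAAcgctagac
Hspa1a, chr17:34972242-34972271, minus strand: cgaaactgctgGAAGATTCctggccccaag
Hspa1b, chr17:34959324-34959353, minus strand: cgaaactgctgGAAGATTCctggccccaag
Hspb1, chr5:135887801-135887830, plus strand: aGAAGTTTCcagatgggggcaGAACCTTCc
Dnaja1, chr4:40722333-40722362, plus strand: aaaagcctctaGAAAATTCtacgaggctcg
Hsph1, chr5:149636351-149636380, minus strand: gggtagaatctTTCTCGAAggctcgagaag
Hspa5, chr2:34772019-34772048, plus strand: acttcaCCAATCGGAGGCCTCCACGacggg
Hsp90b1, chr10:86705633-86705662, minus strand: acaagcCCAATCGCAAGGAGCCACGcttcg
Hsp90b1, second site, chr10:86705528-86705557, minus strand: agagtgCGTGGTGAGGCACGATTGGtgagt
Dnajc3, chr14:118937821-118937850, plus strand: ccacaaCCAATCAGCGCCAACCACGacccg

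The 3-unit form occurred in the windows of 4 members, Hspe1, Hspd1, Dnajb6 and Hsph1, which is 6.56% of the 61 members against 0.662% of all 27025 genes. The Hspe1 stretch is shared: Hspd1 and Hspe1 encode the mitochondrial chaperonin and its cap, lie head to head on chromosome 1 with annotated starts 111 bases apart, and the same capitals fall in both windows, 1 per strand. The capitals of Hspe1 join overlapping 3-unit matches into a longer run. In Hsph1 the 3-unit match lay after the start and is not printed. The 2-unit form occurred in 17 of the 61 members (27.9%) against 17% of all genes, so this short motif is common. The ER stress element was found in Hspa5, Hsp90b1 and Dnajc3 alone among the members, 4.92% of them against 0.137% of all genes. The 250 bases before the start of Hspa1a and Hspa1b matched at 247 positions. A match is a run of letters and was not tested for binding here.

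The heart expressed most of the set. Of 76 members, 64 had 1 TPM or more in each library (84.2%), against 49.1% of all nuclear protein-coding genes. The median member level was 13.6 TPM in replicate 1 and 14.5 TPM in replicate 2. The members held 1.59% of nuclear protein-coding TPM in replicate 1 and 1.47% in replicate 2, a mean of 1.53 ± 0.0861%. The total was concentrated: the 5 most abundant members held 58.7 ± 0.307% of the member TPM and the first 10 held 75.1 ± 0.187%. By mean level, 13 members stood at 100 TPM or more, 32 between 10 and 100, 21 between 1 and 10, 4 between 0.1 and 1, and 6 under 0.1.

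**Figure D1:**
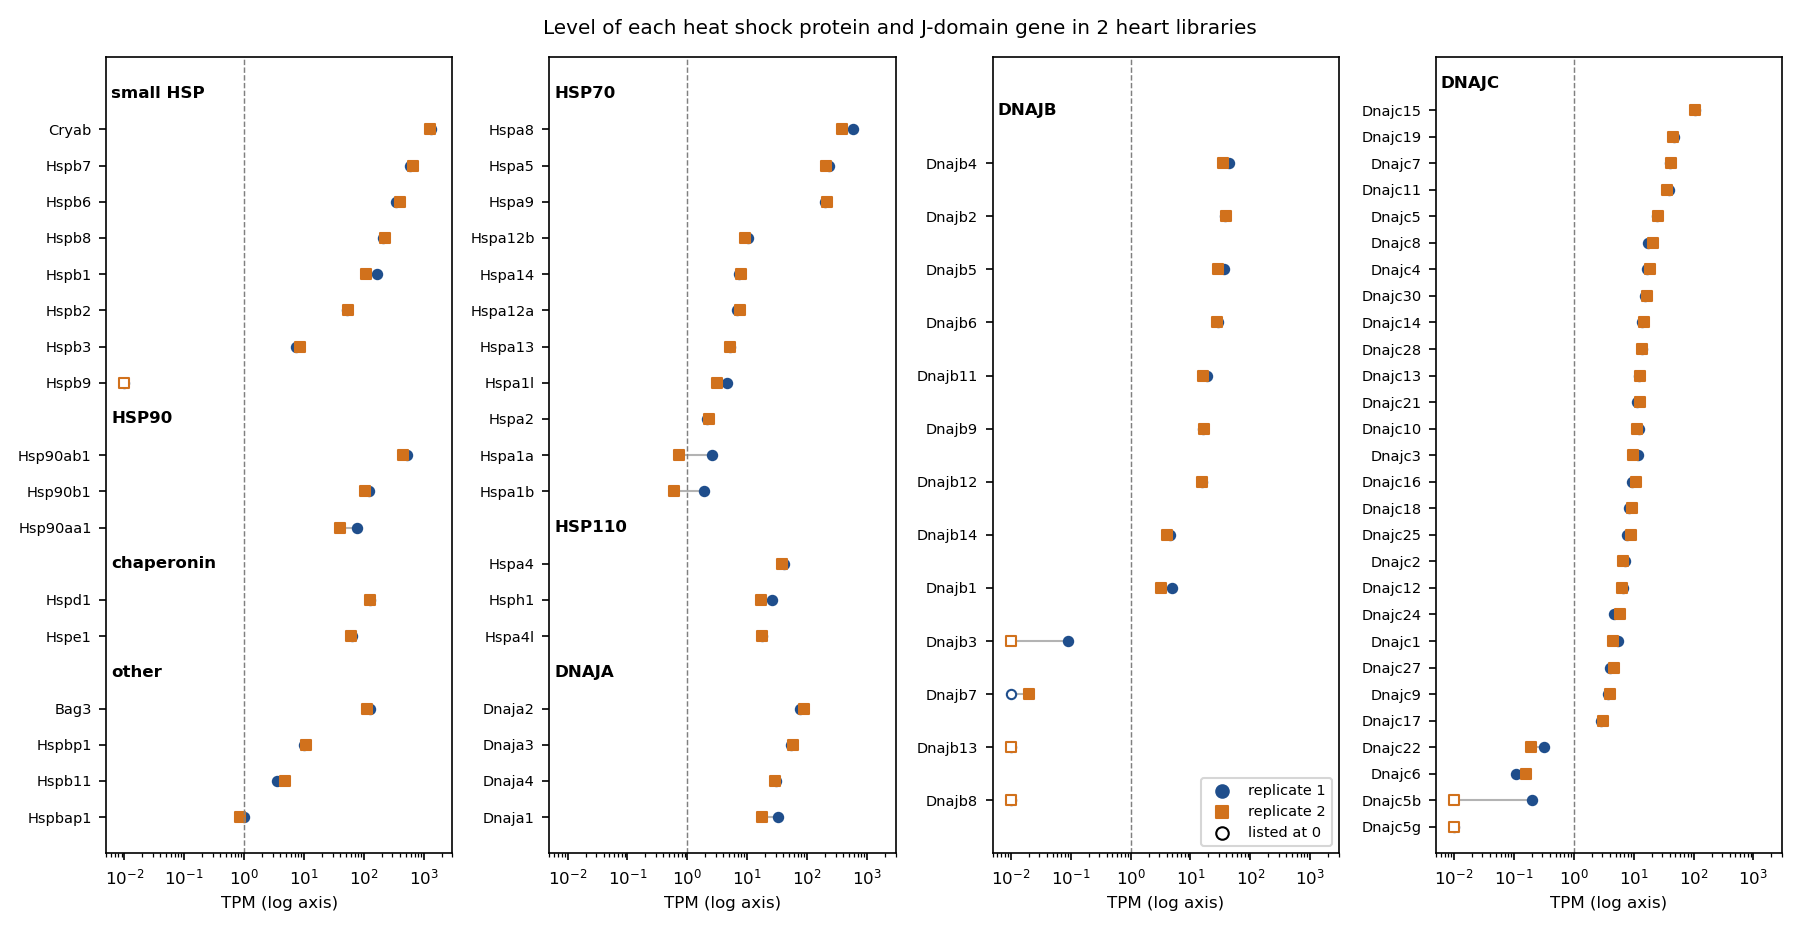
Level of each of the 76 genes in TPM on a log axis, grouped by protein family, with replicate 1 as blue circles and replicate 2 as orange squares; open symbols are genes listed at 0 in that library, drawn at the left edge, where one symbol can cover the other, and the dashed line marks 1 TPM. Cryab stands highest at 1297 and 1281 TPM, and among expressed genes the circles and squares are visibly apart for Hspa1a, Hspa1b, Hsp90aa1 and Dnaja1, in each case with the circle on the right.

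Small heat shock proteins made up the largest family by level. Their 8 genes summed to 2664 TPM in replicate 1 and 2735 TPM in replicate 2, 48.7% of the member TPM. Cryab, which encodes alpha-B crystallin, a chaperone of desmin and the sarcomere, stood at 1297 and 1281 TPM. Hspb7, a small heat shock protein of heart and skeletal muscle, had 591 and 658 TPM, and Hspb6, the kinase-regulated Hsp20, had 339 and 404 TPM. Hspb8, which acts with Bag3 in the autophagy of damaged filament proteins, had 210 and 221 TPM. In these 4 genes the animals lay close together, with scaled ratios within 1.1-fold. Hspb1, encoding Hsp25, was the family's exception, at 167 TPM in replicate 1 and 109 TPM in replicate 2. Hspb2, which forms a muscle complex with the protein of Hspb3, had 52.7 and 54.5 TPM, while Hspb3 was lower at 7.34 and 8.63 TPM. Hspb9, a testis gene, had a count of 0 in both libraries, which allows up to 3 counts each. Hspb2 and Cryab are neighbours on chromosome 9 on opposite strands, with annotated models that overlap. Whether the counting used strand is not stated, so the overlap leaves Hspb2 uncertain. Cryab was 24.6-fold and 23.5-fold above Hspb2 in the same libraries.

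The HSP70 family held 17.2% of the member TPM, and 3 of its 11 genes carried nearly all of it, 1 in each main compartment. Hspa8, the constitutive cytosolic Hsc70, had 577 TPM in replicate 1 and 387 TPM in replicate 2. Hspa5, the ER chaperone BiP, had 236 and 209 TPM. Hspa9, the mitochondrial motor of protein import known as mortalin, had 203 and 214 TPM. The replicates thus differed more for the cytosolic gene than for the ER or mitochondrial one. The 8 others were each near or below 10 TPM. Hspa12b, an endothelial member, had 10.2 and 9.19 TPM and its relative Hspa12a 6.87 and 7.59 TPM. Hspa14, which works with ribosomes, had 7.18 and 7.80 TPM, and Hspa13, an ER-associated member, 5.18 and 5.17 TPM. Hspa2, best known from spermatocytes, was present at 2.13 and 2.30 TPM.

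The genes classically induced by heat had the lowest mean levels of the HSP70 family, although in replicate 1 Hspa1a was above Hspa2. Hspa1a had 2.61 TPM in replicate 1 and 0.74 TPM in replicate 2, and its near copy Hspa1b had 1.93 and 0.60 TPM. Hspa1l, their neighbour on chromosome 17, had 4.62 and 3.19 TPM. Hspa8 was 221-fold and 523-fold above Hspa1a in replicates 1 and 2, and 379-fold and 787-fold in the second quantification. Of the 31-base words of its transcripts, 65.4% of those of Hspa1a and 68% of those of Hspa1b also occur in another gene, so the split between this pair is uncertain and their sum is the safer value. The testis markers Prm1 and Tnp1 had 0 counts in both libraries and Ddx4 had 1 and 4 counts.

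HSP110 genes encode the nucleotide exchange factors of HSP70. Hspa4 had 41.4 and 38.3 TPM and Hspa4l had 17.8 and 17.9 TPM, so for these genes the libraries lay close. Hsph1, the heat-inducible Hsp105, had 25.8 TPM in replicate 1 and 17.1 TPM in replicate 2.

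HSP90 is present in all eukaryotic cytosol, and the ER has its own form. Hsp90ab1, the constitutive cytosolic gene, had 528 TPM in replicate 1 and 444 TPM in replicate 2. Hsp90aa1, the inducible cytosolic gene, had 78.1 and 39.5 TPM. Hsp90b1, the ER form Grp94, had 121 and 105 TPM. Both cytosolic genes were higher in replicate 1, and the gap was wider for the inducible one, so the ratio of Hsp90ab1 to Hsp90aa1 moved from 6.76 in replicate 1 to 11.2 in replicate 2 (8.01 and 9.98 in the second quantification).

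The mitochondrial chaperonin lay close between the animals. Hspd1 (Hsp60, chr1:55077835-55088243, minus strand) had 125 and 127 TPM and Hspe1 (Hsp10, chr1:55088132-55091307, plus strand) had 63.2 and 61.3 TPM. Their ratio was 1.98 in replicate 1 and 2.06 in replicate 2, and 1.91 and 1.99 in the second quantification. Bag3, the cochaperone that links Hspb8 to HSP70 in muscle, had 124 and 112 TPM. Of the remaining genes outside the J-domain families, Hspbp1, a nucleotide exchange factor, had 9.91 and 10.7 TPM, Hspb11, a ciliary transport subunit despite its symbol, had 3.57 and 4.90 TPM, and Hspbap1, named as a partner of Hspb1, had 0.99 and 0.85 TPM.

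The 45 J-domain genes outnumbered all other members but held 15.1% of the member TPM. Class A, which pairs a J domain with a zinc-binding region, had 4 genes: Dnaja2 at 77.2 and 89.2 TPM, mitochondrial Dnaja3 at 53.5 and 58.1 TPM, Dnaja4 at 30.6 and 29.2 TPM, and Dnaja1 at 32.9 TPM in replicate 1 and 17.4 TPM in replicate 2. Dnaja2 and Dnaja1 are close relatives of the same compartment, and their ratio was 2.34 in replicate 1 and 5.12 in replicate 2.

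Class B genes of the cytosol were led by Dnajb4 (43.6 and 34.9 TPM), Dnajb2 (37.9 and 39.2 TPM), Dnajb5 (36.3 and 29.2 TPM) and Dnajb6 (28.8 and 27.3 TPM), the last of which guards against filament aggregates in muscle. Dnajb1, the stress-inducible Hsp40, was far lower at 4.96 and 3.17 TPM, so Dnajb4 was 8.80-fold and 11.0-fold above it. The ER members of the class, all partners of BiP or of membrane protein quality control, lay between 4.06 and 18.9 TPM, and they are Dnajb11, Dnajb9, Dnajb12 and Dnajb14. Dnajb3 had 3 and 0 counts, Dnajb7 had 0 and 1, and Dnajb8 and Dnajb13, genes known from testis, had 0 in both.

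Class C genes share the J domain alone. Of its 4 mitochondrial genes, 2 had the highest levels in the class, Dnajc15 (107 and 105 TPM) and Dnajc19 (46.9 and 44.7 TPM), both linked to the import motor of the inner membrane. Dnajc11, a partner of the cristae-organising complex, had 38.8 and 35.7 TPM, and Dnajc30 had 15.3 and 16.7 TPM. Cytosolic Dnajc7, which binds both HSP70 and HSP90, had 39.9 and 41.3 TPM. Other cytosolic members were lower, Dnajc21, Dnajc2, Dnajc12 and Dnajc24 ranging from 4.79 to 12.7 TPM. Among the ER members, Dnajc3, an inhibitor of the kinase PERK, had 11.7 and 9.61 TPM, Dnajc10, an ER reductase, had 12.2 and 11.6 TPM, and Dnajc14, Dnajc16, Dnajc18 and Dnajc1 ranged from 4.52 to 14.98 TPM. Dnajc5, a chaperone of secretory vesicles, had 24.9 and 25.9 TPM and Dnajc13, an endosomal protein, 12.3 and 12.6 TPM. Dnajc8, a splicing-associated gene, had 17.5 and 21.2 TPM, and the other nuclear members Dnajc9 and Dnajc17 lay between 2.84 and 3.97 TPM. Dnajc4, Dnajc28, Dnajc25 and Dnajc27, given no compartment here, ranged from 4.04 to 19.0 TPM. The lowest 4 were Dnajc22 (12 and 9 counts), Dnajc6, the auxilin of neurons (20 and 12 counts), Dnajc5b (6 and 0 counts) and Dnajc5g (0 in both), the last pair being relatives of Dnajc5.

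Grouped by compartment, 41 cytosolic genes held 77.9% of the member TPM, 8 mitochondrial genes 11.8% and 13 ER genes 8.20%. These shares, like those of the families above, count every annotated transcript of a gene, coding or not. In the quantification used for them, coding transcripts held 41.2% of the TPM of Cryab and 2.78% of that of Dnajc15. All 8 mitochondrial and all 13 ER genes reached 1 TPM in both libraries, against 33 of 41 cytosolic genes. The mitochondrial sum was 652 TPM in replicate 1 and 662 TPM in replicate 2, and the ER sum was 477 and 433 TPM. The cytosolic sum was 4465 and 4176 TPM.

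The 2 animals differed in 8 members, all of them genes for cytosolic proteins. Calls were limited to genes with 200 or more counts over both libraries. Such a gene was called if TMM-scaled counts were 1.5-fold apart or more and an exact Clopper-Pearson interval around the ratio, built to miss in 1 of 1000 cases, left out 1. The interval covers counting error only, and with 1 library per animal the call compares these libraries. Of 64 members tested, 8 were called higher in replicate 1 (12.5%), against 2.44% of 10472 nuclear protein-coding genes, and 0 were called higher in replicate 2, against 0.945%. The 1.5-fold line was chosen knowing from earlier results of these data how far the most different members lay apart. The excess of calls over all genes thus depends in part on that choice. By compartment, 8 of the 35 cytosolic members tested were called, and 0 of 13 in the ER and 0 of 8 in mitochondria. Whether the compartments differ was not tested. In whole tissue, fewer cells of a type and less RNA per cell cannot be told apart.

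Hspa1a and Hspa1b differed most. Hspa1a had 260 counts in replicate 1 and 69.8 in replicate 2, a ratio of 3.58 (interval 2.32 to 5.74). Hspa1b had 182 and 53.6 counts, a ratio of 3.25 (1.97 to 5.61). Summed, which removes the doubt about the split between the copies, they had 442 and 123 counts, a ratio of 3.46 (2.49 to 4.92), and 3.43 in the second quantification. Hspa1l, which shares fewer of its words, had a ratio of 1.47 (1.13 to 1.94) and was just under the 1.5-fold line.

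The other 6 had more counts, and except for Dnajb1 their counting intervals were narrow. Dnaja1 had 1856 and 893 counts, a ratio of 2.00 (1.75 to 2.29). Hsp90aa1 had 5172 and 2748 counts, a ratio of 1.81 (1.68 to 1.96). Dnajb1 had 498 and 298 counts, a ratio of 1.61 (1.27 to 2.06). These are a cytosolic HSP70 partner, the inducible HSP90 and the inducible Hsp40. Hsph1 had 2273 and 1386 counts, a ratio of 1.58 (1.41 to 1.77). Hspb1 had 4653 and 2871 counts, a ratio of 1.56 (1.44 to 1.69). Hspa8 had 41014 and 25519 counts, a ratio of 1.55 (1.51 to 1.59). The last 3 lie close to the line. At 2-fold in place of 1.5-fold, 3 of 64 members were called, Hspa1a, Hspa1b and Dnaja1, all higher in replicate 1. The share of coding genes called at 2-fold was 0.84% for replicate 1 and 0.191% for replicate 2. In the second quantification Hspb1 was at 1.49 and was not called, and the other 7 were.

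**Figure D2:**
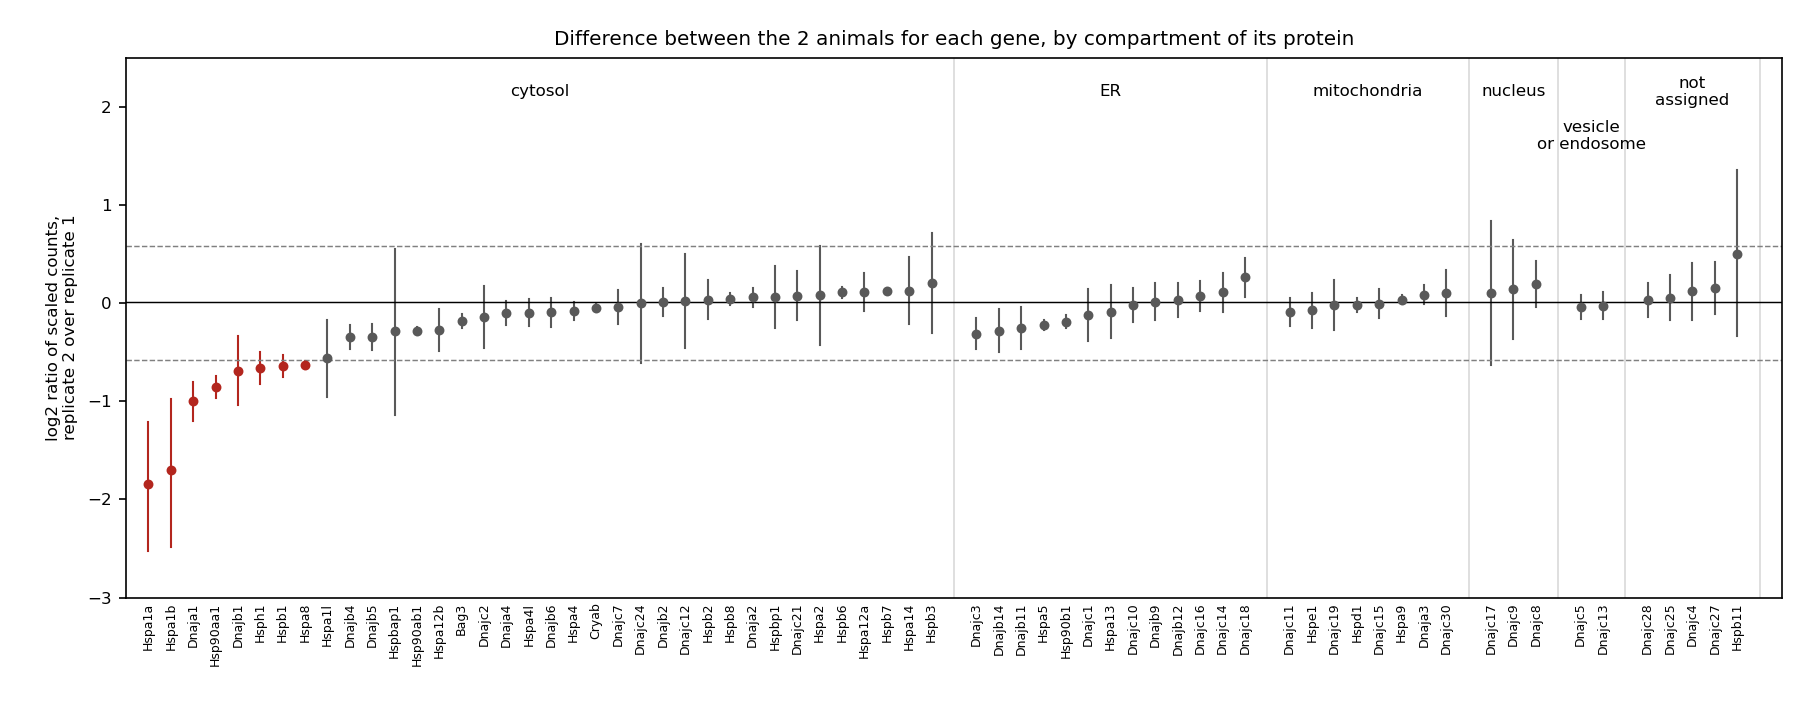
Ratio of scaled counts, replicate 2 over replicate 1, on a log2 scale for the 67 members with 50 or more summed counts, ordered within the compartment of the protein; bars are the exact intervals, which cover counting error only, the solid line is the median of all coding genes and dashed lines mark 1.5-fold. The 8 red points, all cytosolic, are the genes called higher in replicate 1, from -1.84 for Hspa1a to -0.63 for Hspa8, while the 8 mitochondrial points lie between -0.09 and 0.10.

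Smaller gaps ran the same way. The counting interval alone, with no line on the fold, lay above 1 for replicate 1 in 20 of 64 members (31.2%) and for replicate 2 in 3 (4.69%), where all genes gave 9.04% and 9.03%. Abundant genes have narrower intervals, so these shares also follow the counts. Among the 12 not called, the ratio was 1.27 for Dnajb4 and for Dnajb5, 1.24 for Dnajc3, 1.22 for Hsp90ab1, 1.19 for Dnajb11, 1.16 for Hspa5, 1.14 for Hsp90b1 and 1.13 for Bag3. Thus 5 of the 13 ER members were in this group, all under 1.25-fold. The 3 with replicate 2 higher were Dnajc18 (1.20-fold), Hspb7 (1.09-fold) and Hspb6 (1.08-fold). The middle of the set hardly moved: log2 ratios (replicate 2 over replicate 1) had a median of -0.02 over 67 members and 0.01 over 12425 coding genes, with a median of -0.10 for the cytosol, -0.09 for the ER and -0.01 for mitochondria.

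Several of the called genes have close copies elsewhere in the genome. For Hspa8, 71.6% of the 31-base words of its transcripts occur in another gene, most often in Gm15459, an intron-free copy listed with 11891 and 7394 counts (186 and 122 TPM), and the second quantification gave that copy 193 and 120 TPM. Reads of such copies can be assigned to the wrong gene, so the Hspa8 level is uncertain. Its TPM was 894 and 557 in the second quantification, where its counts were 38774 and 24188. Much of this TPM lay on short transcript models of Hspa8. The processed transcript Hspa8-203 had 0 TPM in the first quantification and 219 and 135 TPM in the second. Coding transcripts of Hspa8 summed to a mean of 473 TPM in the first and 482 TPM in the second. Summing a gene with its main copy leaves out how reads were divided between that pair, but other genes with shared words were not added. Hspa8 plus Gm15459 gave a ratio of 1.55 between the animals, and the copy alone also had 1.55. Hspb1 shares 52.3% of its words, mainly with the pseudogene Hsp25-ps1, and their sum gave 1.54. Hsp90aa1 plus Gm12346 gave 1.81 and Dnaja1 plus Gm15542 gave 2.02. Gm12346 (68.9 and 47.7 counts) and Gm15542 (104 and 40.2 counts) held few counts beside their members, so these sums could hardly move. Hspd1 and Hspe1 share 50.1% and 48.1% of their words with other genes, and their sums with the main partner gave 1.02 and 1.04.

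Of the 8 called members, 6 had a promoter window and 5 of these held the 2-unit element (Hspa1a, Hspa1b, Hspb1, Dnaja1 and Hsph1). Among the 45 members tested, not called and with a window, 11 held it, and over all 27025 genes the share was 17%. Hspa1a and Hspa1b are near copies with the same printed site, so they are hardly separate cases. Dnajb1 had a window without the element, and Hspa8 and Hsp90aa1 had no window. Whether the element goes with the calls was not tested. Of the 4 members with the longer 3-unit form, Hsph1, where it lies after the start, had a ratio of 1.58, and Hspd1, Hspe1 and Dnajb6 had ratios of 1.02, 1.05 and 1.07. The 3 genes with an ER stress element, Hspa5, Hsp90b1 and Dnajc3, had ratios of 1.16, 1.14 and 1.24.

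Lists of related genes were counted by the same rule. Of all nuclear protein-coding genes tested, 2.44% were called higher in replicate 1 and 0.945% in replicate 2. At such shares a short list will often hold no call, so a count of 0 says little about its genes. Of the heat shock factors and their binding partners, 3 had enough counts (Hsf1, Hsf2 and Hsbp1) and 0 were called. Hsf1, the main regulator of the cytosolic response, had 15.2 and 13.8 TPM, Hsf2 had 5 and 5.45 TPM, Hsf4 had 1.46 and 1.71 TPM, and Hsbp1, which binds the factor, had 53.6 and 60.9 TPM. Of 27 cytosolic cochaperones tested, 0 were called higher in replicate 1 and 1 in replicate 2, Aarsd1 at 4.29 and 7 TPM. The most abundant were the HSP90 partner Fkbp4 (130 and 135 TPM), Bag1 (91.7 and 89.4 TPM), Bag6 (81.3 and 80.0 TPM) and Unc45b, a myosin chaperone (59.2 and 63.2 TPM). Of 12 subunits of the CCT chaperonin and prefoldin tested, 0 were called in either direction, and none of 14 genes of mitochondrial folding, import and proteolysis was. Of 24 genes of ER folding and the unfolded protein response, 2 were called higher in replicate 1, the transcription factor Atf4 (26.6 and 16.9 TPM) and Creld2 (9.76 and 6.16 TPM), while Canx and Calr, the lectin chaperones, had 115 and 116 TPM and 115 and 105 TPM. A list of 17 genes linked to heat, none of them members, overlaps the lists above, for example in Fkbp4 and Tcp1. Of these 17, Rgs2 (9.97 and 5.51 TPM) and Slc5a3, an osmolyte carrier (2.03 and 1.16 TPM), were called higher in replicate 1. Cirbp, which is induced by cold, went the other way at 12.1 and 19.1 TPM and was called higher in replicate 2. Rbm3, a second cold-induced gene, had 21.7 and 31.4 TPM, a 1.42-fold gap under the line.

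Other gene lists also held calls, which a single pair of libraries cannot link to the chaperone genes. The share called higher in replicate 1 was 2.44% of nuclear protein-coding genes tested. All 12 immediate early genes listed were lower in replicate 2 and 11 were called higher in replicate 1. Fos, the most shifted, had 529 and 64 counts, a ratio of 7.97, followed by Atf3 at 3.96 and Fosb at 3.65. All 5 erythroid genes were called higher in replicate 1, with a median ratio of 1.90 and a summed level of 11660 and 6319 TPM. Scgb1a1, an airway gene, had 204 and 0 counts, while the lung markers Sftpc and Sftpb had 0 and 0 and 3 and 0. Of 5 macrophage markers tested 1 was called, Adgre1 at 512 and 193 counts, a ratio of 2.56. The heart muscle markers had a median ratio of 0.945 with 0 of 8 called. The part of blood, airway tissue or early gene induction in the chaperone differences was not tested.

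**Figure D3:**
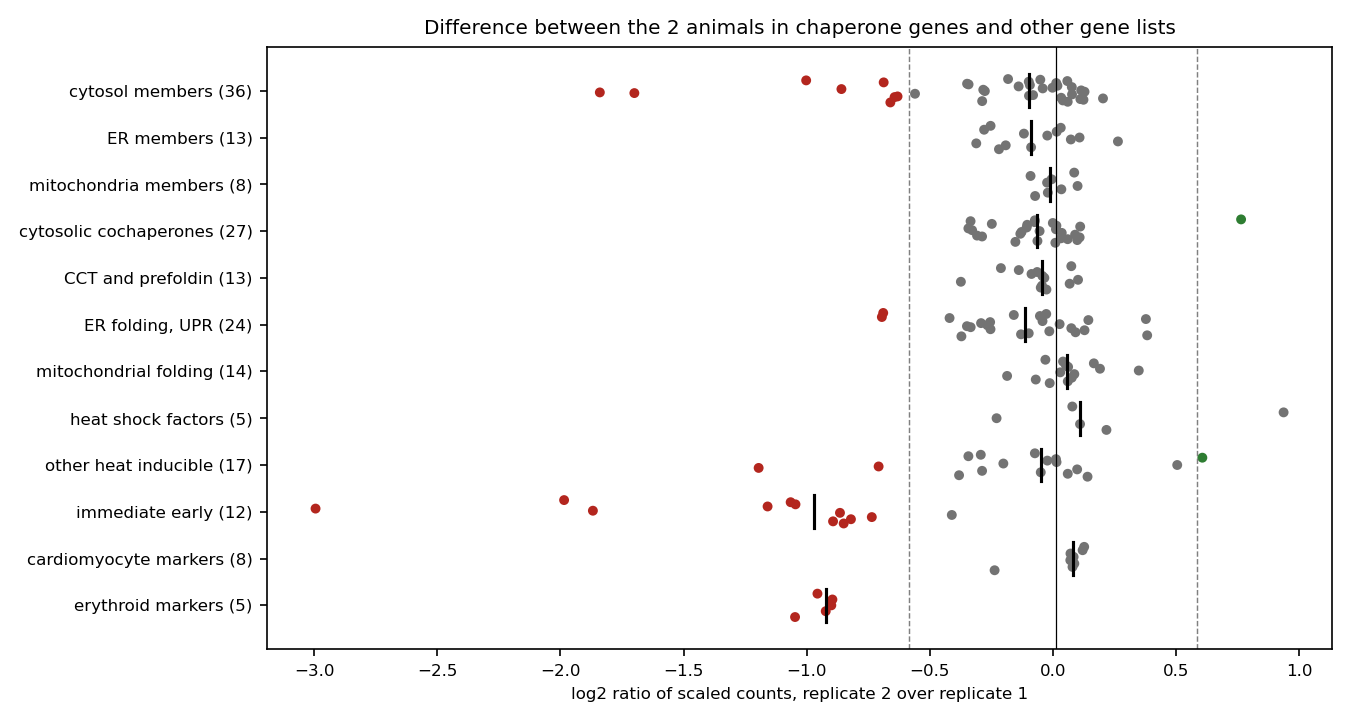
Ratio of scaled counts, replicate 2 over replicate 1, on a log2 scale for members by compartment and for 9 gene lists, with the number of genes of 50 or more summed counts in brackets; red and green points are called higher in replicate 1 and in replicate 2, black ticks are medians and dashed lines mark 1.5-fold. The immediate early genes centre at -0.97 and the erythroid markers at -0.92, while the cytosolic members centre at -0.10 with a tail of 8 red points.

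The level of some members depends on which transcripts are counted. All 66 members with a mean of 1 TPM or more lay within 2-fold between the 2 deposited quantifications, as did 99% of coding genes. Single transcripts were less settled: among 45 members of 10 TPM or more, the leading transcript was the same in 38, and in 18 it held over 90% of the gene in both libraries. Hspb7, Bag3, Dnajc3 and Dnajc30 have 1 annotated transcript each, so for them the question does not arise. Of the 41 members with more than 1 transcript, 34 shared the leading transcript.

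Dnajc15 and Cryab stood out. In Dnajc15 the coding transcript, of 6193 nucleotides, had 2.78 and 3.08 TPM. The rest of its 107 and 105 TPM lay on Dnajc15-203, a processed transcript of 419 nucleotides (70.4 and 68.0 TPM), and on Dnajc15-201, a nonsense-mediated decay model of 674 nucleotides (33.5 and 33.4 TPM). The coding share was 2.78% in the first quantification and 1.20% in the second. On coding transcripts alone Dnajc15 ranked 62 of 76, not first among J-domain genes. In Cryab the leading model was Cryab-204, a retained-intron transcript of 585 nucleotides with 759 and 756 TPM, ahead of the coding Cryab-205 of 836 nucleotides with 516 and 507 TPM. The second quantification put Cryab-205 first, at 750 and 667 TPM against 563 and 566 TPM. Coding transcripts of Cryab summed to 532 ± 9.16 TPM, below the 625 ± 47.1 TPM of Hspb7, but to 807 TPM against 566 TPM in the second quantification, so which of them leads depends on the table used.

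Dnajc19 was split in the same way between Dnajc19-205, a retained-intron model of 419 nucleotides (26 and 21 TPM), and the coding Dnajc19-202 (20.3 and 23.0 TPM). Dnaja2 had 49.1 and 51.0 TPM on its coding transcript and 28.1 and 38.3 TPM on the retained-intron Dnaja2-202, and the second quantification put the latter first. These models lie in the same locus as the coding ones, and how reads were divided between them was not tested. The leading transcript also changed in Dnajc7, Dnajc11, Hsph1 and Dnajc13. In each quantification 3 of the 45 members had under 50% of their TPM on coding transcripts, and 1, Dnajc15, did so in both.

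**Figure D4:**
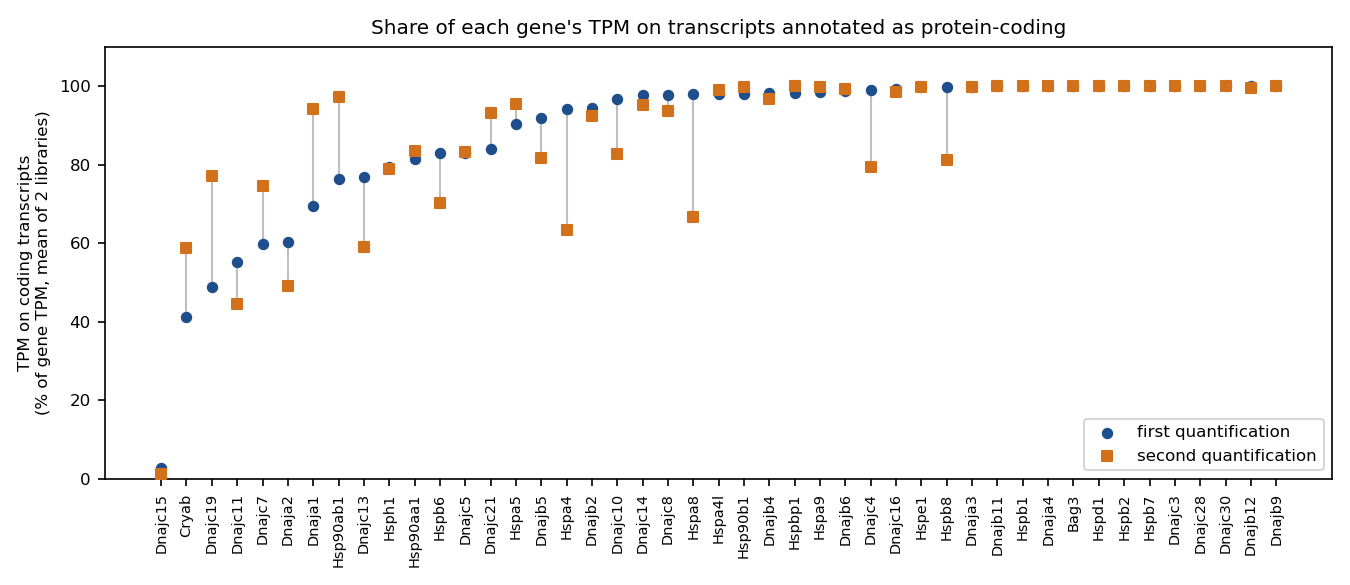
Share of each gene's TPM that lies on transcripts annotated as protein-coding, in percent, for the 45 members of 10 TPM or more, as the mean of both libraries in the first (blue circles) and second (orange squares) quantification. Dnajc15 lies at 2.78% and 1.20%, Cryab at 41.2% and 58.8%, and 25 of the 45 genes lie over 90% in both.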

How the data were processed

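Total RNA-seq libraries from 2 hearts were deposited with tables per gene and per transcript. The first quantification holds expected counts, TPM, FPKM and the percent of each gene's TPM on a transcript, in the column layout of RSEM per the file headers. The second holds estimated counts and TPM per transcript in the layout of kallisto per the file headers, and was summed per gene. Both use mm10 and GENCODE M21 per the deposited file listing. Tool versions, the aligner and the treatment of CAST alleles were not given in the sources used here. The deposited gene tables also give a posterior SD of the count and bounds of TPM, which were read and not used.

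Members were found by symbol and transcript type, and 55450 mouse genes were common to both quantifications. Replicate 1 held 42.0 M counts on mouse genes (343564 on members) and replicate 2 held 39.98 M (302956 on members). Counts of the libraries were further apart than sampling noise (chi-square of 15.4 per degree of freedom over 17065 genes, and 89.3 over 69 members). Expected counts were rounded and scaled by TMM in edgeR 4.0.16. A ratio needed 50 summed counts and a call 200, and a count of 0 was set to a floor of 3 in that library. DESeq2 1.42.0 gave alternative size factors. Shared sequence was the share of a gene's 31-base words that occur in another gene. The call rule was tested on simulated counts with a between-library CV (SD over mean) of 0.1. It called 46% of genes with a true 1.5-fold change, 96% at 2-fold and 0.969% of unchanged genes. That CV was set and not estimated from these libraries, so these rates are not error rates of the calls reported here. Intervals cover counting error only, since amplified copies cannot be told from molecules, and the labels do not say more on how the animals relate than the donor entry.

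Members, lists and rules were chosen with earlier results of these data known. All members may be named. List genes named were up to 4 by level and any called. Compartments and families were assigned by hand from general knowledge. Protein sequences, and the promoters of the 15 members without a window, were not analysed here. Python 3.11.15, pandas 2.3.3, numpy 2.4.6, scipy 1.17.1 and R 4.3.3 were used.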

Additional observations from a re-analysis of the deposited data

Results flagged for a closer look

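Among 15 annotated pseudogenes named after members, which the comparisons do not use, 3 had more than the 3 counts that a count of 0 allows, and 10 had 0 counts in both libraries. Hsp25-ps1, a copy of Hspb1, had 339.25 counts in replicate 1 and 256.62 in replicate 2. Hspd1-ps3 had 31.1 and 22.96 counts, and Hspd1-ps4 had 9 and 4. These genes share sequence with Hspb1 and Hspd1, and the origin of their reads was not tested.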

How the results depend on the processing

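No paired analysis was possible because the 2 libraries form a single group. A difference between animals cannot be computed without either library, so those results have no such range. The count of members differing between animals was 8, all higher in replicate 1, and 3 in each of these counts at 2-fold. It was 7 in the second quantification and 8 with DESeq2 size factors, total counts, a minimum of 50 summed counts or no minimum. The share of coding genes called higher in replicate 1 was 2.44%, against 0.84% at 2-fold and 2.53% in the second quantification. That share was 2.55% with DESeq2 size factors, 2.33% with total counts, 3.24% with a minimum of 50 and 2.93% with no minimum. The median log2 ratio of members was -0.02 and turned to 0.012 from TPM with a pseudocount of 0.1 and 0.011 with a pseudocount of 1. The same changes took the median of all coding genes from 0.01 to 0.04 and 0.03. The member share was 0.555% of all TPM, a wider base, against 1.53% of nuclear protein-coding TPM, and 1.47% to 1.59% with either library alone. The median member level of 14.04 TPM was 11.6 as FPKM and 13.6 to 14.5 with either library alone. It was 12.3 on protein_coding transcripts alone, a choice made after seeing the data, which left 64 members at 1 TPM. Members at 1 TPM numbered 64 to 66 with either library alone, members within 2-fold between quantifications 64 to 66, and shared leading transcripts 38 to 39. Including members of 1 TPM or more, 58 of 66 shared the leading transcript, since more genes were examined.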
